A study of Mus musculus with 16 samples.

Results

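The 4 Hox clusters are the chromosomal blocks in which the Hox genes, a family of homeodomain transcription factors, lie side by side. They were taken as fixed GRCm38 intervals, HoxA on chromosome 6 from 52150000 to 52265000, HoxB on chromosome 11 from 96190000 to 96370000, HoxC on chromosome 15 from 102915000 to 103040000 and HoxD on chromosome 2 from 74660000 to 74770000. In bins of 5 kb they gave 106 of the 511433 bins with calls, and they hold the 38 Hox genes of the list among 21951 annotated protein-coding genes. The rule uses position and no methylation value, although the clusters were picked with earlier results of these data known, and each cluster was set against the 200 kb on each of its sides.

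CpG methylation was measured in 16 libraries of pooled metaphase II (MII) oocytes, all from F1 females of the cross C57BL/6J X CBA/Ca. The 4 IFC pools came from in vitro follicle culture, in which preantral follicles of prepubertal females were grown outside the body, and their labels give an age of 23 days. By the paper the follicles came from younger females, so this age takes in the time in culture. The 5 SO pools came from superovulated prepubertal females of 23 days, the 4 SOA pools from superovulated adults of 10 weeks, and the 3 IV pools from naturally ovulated adults of 10 weeks without hormones. SO and SOA females received different hormone doses, so age and dose cannot be told apart between them. IFC follicles received hormones in the medium and SO females by injection, so culture and hormone treatment cannot be told apart between IFC and SO. Each value is an average over a pool of oocytes and over both alleles. IFC and SO address culture, SO and SOA age, SOA and IV superovulation, and IFC and SOA the distance between cultured oocytes and those of stimulated adults.

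Hox genes give cells their place along the head-to-tail axis of the embryo, with the low-numbered paralogues active towards the head and the high-numbered ones towards the tail. Polycomb proteins are known for holding such developmental genes inactive, and Hox expression was not measured here. In the growing oocyte DNA methylation is laid down mainly over transcribed gene bodies, and CpG-rich regions without transcription remain free of it. The cells were checked at imprinted promoters that oocytes methylate: over all libraries, 5 of 8 had more than 80% of calls methylated, among them Snrpn at 99.0%, Kcnq1ot1 at 96.8% and Nnat at 95.1%, while Mest had 36.1% and the annotated gene starts of Inpp5f and Plagl1 had 2.14% and 1.85%. Of 5 promoters that are open in all cell types, 4 were under 10%, and Gapdh had 25.5%.

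The libraries held between 5218053 and 23065411 calls, and of these between 2641 and 15083 fell in the 4 clusters. All IFC libraries and 5 SO and SOA libraries were the 9 libraries with the fewest calls, while every IV library had more, so depth and group are partly mixed. Library IV1 stood apart at sites that are otherwise unmethylated. In the 91 cluster bins with a mean under 20%, it had 4.52% of calls methylated, against 2.22% to 2.97% in the other 15 libraries, and in the low bins of the rest of the genome it had 13.5%, against 5.47% to 8.87%. The named results of SOA vs IV inside the clusters are therefore also given without it.

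The sequences below show the kinds of Hox DNA that the results turn on, read from the RefSeq copy of GRCm38.p6, with every CpG in capitals. The first set holds the promoters with most CpGs in HoxA, HoxB and HoxD among those matched in the RefSeq promoter table, which lists 22 of the 38 genes. Each is the 250 bases before the transcription start, in the direction of the gene. Hoxa13 (chr6:52260881-52261130, minus strand) carries 35 CpGs, Hoxb4 (chr11:96318017-96318266, plus strand) 14 and Hoxd13 (chr2:74667975-74668224, plus strand) 31. As many CpGs as in the Hoxa13 promoter are found in 2.97% of the 32851 promoters of the table, and as many as in the Hoxd13 promoter in 5.19%. Pooled over all libraries, 2 of 174 calls in the Hoxa13 promoter were methylated, 4 of 113 in that of Hoxb4 and 2 of 94 in that of Hoxd13, where no IFC library had a call.
Hoxa13 promoter: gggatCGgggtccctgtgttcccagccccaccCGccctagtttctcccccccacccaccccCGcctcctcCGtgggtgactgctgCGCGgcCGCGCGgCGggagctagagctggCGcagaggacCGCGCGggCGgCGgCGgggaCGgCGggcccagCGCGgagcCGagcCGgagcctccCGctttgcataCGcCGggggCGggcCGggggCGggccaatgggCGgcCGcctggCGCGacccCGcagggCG
Hoxb4 promoter: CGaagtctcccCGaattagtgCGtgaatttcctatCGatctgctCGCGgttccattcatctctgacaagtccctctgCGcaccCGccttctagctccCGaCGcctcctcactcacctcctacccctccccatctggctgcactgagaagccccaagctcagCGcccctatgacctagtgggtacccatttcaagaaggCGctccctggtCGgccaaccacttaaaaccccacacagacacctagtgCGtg
Hoxd13 promoter: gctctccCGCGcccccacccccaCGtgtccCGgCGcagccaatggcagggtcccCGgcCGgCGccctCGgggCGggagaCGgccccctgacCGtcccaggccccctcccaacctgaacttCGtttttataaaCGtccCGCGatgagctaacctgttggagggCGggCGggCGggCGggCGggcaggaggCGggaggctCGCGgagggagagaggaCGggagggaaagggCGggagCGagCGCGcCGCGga

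The second set holds the exceptions, each the 200 bases with most CpGs in its region, on the plus strand. The first lies between Hoxb13 and Hoxb9 (chr11:96217971-96218170, intergenic, 7 CpGs), where 64 of 68 calls were methylated. The second lies in the first intron of the longer Hoxc4 transcript (chr15:103027463-103027662, 17 CpGs), where 56 of 179 calls were methylated. By group this was 3.45% of 29 calls in IFC, 39.4% of 66 in SO, 22.2% of 36 in SOA and 43.8% of 48 in IV. The third lies after the end of Hoxc4, just outside the cluster interval (chr15:103040593-103040792, intergenic, 8 CpGs), where 50 of 89 calls were methylated. The intron window has the CpG density of a Hox promoter and yet carried methylation, whereas the HoxB window has few CpGs.
Between Hoxb13 and Hoxb9: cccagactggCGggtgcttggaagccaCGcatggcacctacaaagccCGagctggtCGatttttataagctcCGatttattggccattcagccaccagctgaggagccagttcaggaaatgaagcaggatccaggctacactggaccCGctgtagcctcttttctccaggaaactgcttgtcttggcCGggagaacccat
Hoxc4 intron: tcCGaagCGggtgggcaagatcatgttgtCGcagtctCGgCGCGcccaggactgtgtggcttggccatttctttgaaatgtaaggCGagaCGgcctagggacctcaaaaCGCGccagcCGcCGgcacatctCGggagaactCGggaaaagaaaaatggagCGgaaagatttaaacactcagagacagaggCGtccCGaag
After Hoxc4: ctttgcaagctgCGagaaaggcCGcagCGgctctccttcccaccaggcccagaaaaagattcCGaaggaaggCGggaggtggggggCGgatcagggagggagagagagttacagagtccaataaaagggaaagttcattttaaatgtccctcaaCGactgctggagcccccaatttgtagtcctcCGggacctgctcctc

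The Hox clusters were almost free of methylation in every library. HoxA had a mean of 2.77% ± 0.61 (SD, n = 4) of calls methylated in IFC and 2.49% ± 0.73 (n = 5) in SO, and 2.42% ± 0.35 (n = 4) in SOA and 2.87% ± 0.63 (n = 3) in IV. HoxD was as low, with 2.46% ± 0.15 in IFC and 2.31% ± 0.96 in SO, and 2.37% ± 0.42 in SOA and 3.82% ± 1.46 in IV. HoxB had 6.04% ± 0.39, 6.40% ± 1.16, 6.24% ± 1.61 and 6.52% ± 1.48 in the same order, and HoxC 4.23% ± 0.91, 5.65% ± 0.54, 5.44% ± 0.82 and 5.51% ± 1.35. Among 25270 windows of 100 kb from the rest of the genome, 1 had a lower mean than HoxA and 1 a lower mean than HoxD, while 136 were lower than HoxC and 481 lower than HoxB.

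The flanks held far more methylation than the clusters beside them. Each cluster was lower than its own flanks in 16 of 16 libraries, by a mean of 36.5 percentage points for HoxA (39.1% in the flanks), 25.2 for HoxB (31.5%), 42.3 for HoxC (47.5%) and 27.9 for HoxD (30.5%). The two-sided exact sign-flip permutation test gave p = 3.05e-05 for each of the 4 clusters, the smallest value that 16 libraries can give. This test speaks of these libraries and not of other regions. The size of the gap depends on the measure. Among bins with at least 5 covered positions in every library, the median was 2.24% in HoxA and 10.7% in its flanks. It was 2.54% and 21.9% for HoxB, 2.68% and 50.3% for HoxC, and 2.49% and 7.42% for HoxD. The flanks also held fewer CpGs, 53.6 per bin against 119 in the clusters.

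Bins of high methylation began at unequal distances from the clusters. Going left, the first bin with a mean over 50% lay 130 kb from the HoxA interval, 115 kb from HoxB, 50 kb from HoxC and 30 kb from HoxD. Going right, it lay 20 kb from HoxA, 10 kb from HoxB, 75 kb from HoxC and 5 kb from HoxD. The DNA before these bins was not low throughout: the bin from 103045000 right of HoxC had a mean of 46.6%, and that from 96155000 left of HoxB 43.5%. Among the most methylated bins of the flanks were those in Skap2 left of HoxA, in Ube2z and Skap1 beside HoxB, in Calcoco1 left of HoxC and in Lnpk and Mtx2 beside HoxD, genes that encode adaptor, ubiquitin-transfer, coactivator and membrane proteins. As whole gene bodies, Skap2 had a mean of 88.3%, Calcoco1 82.7% and Skap1 79.6%.

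**Figure D1:**
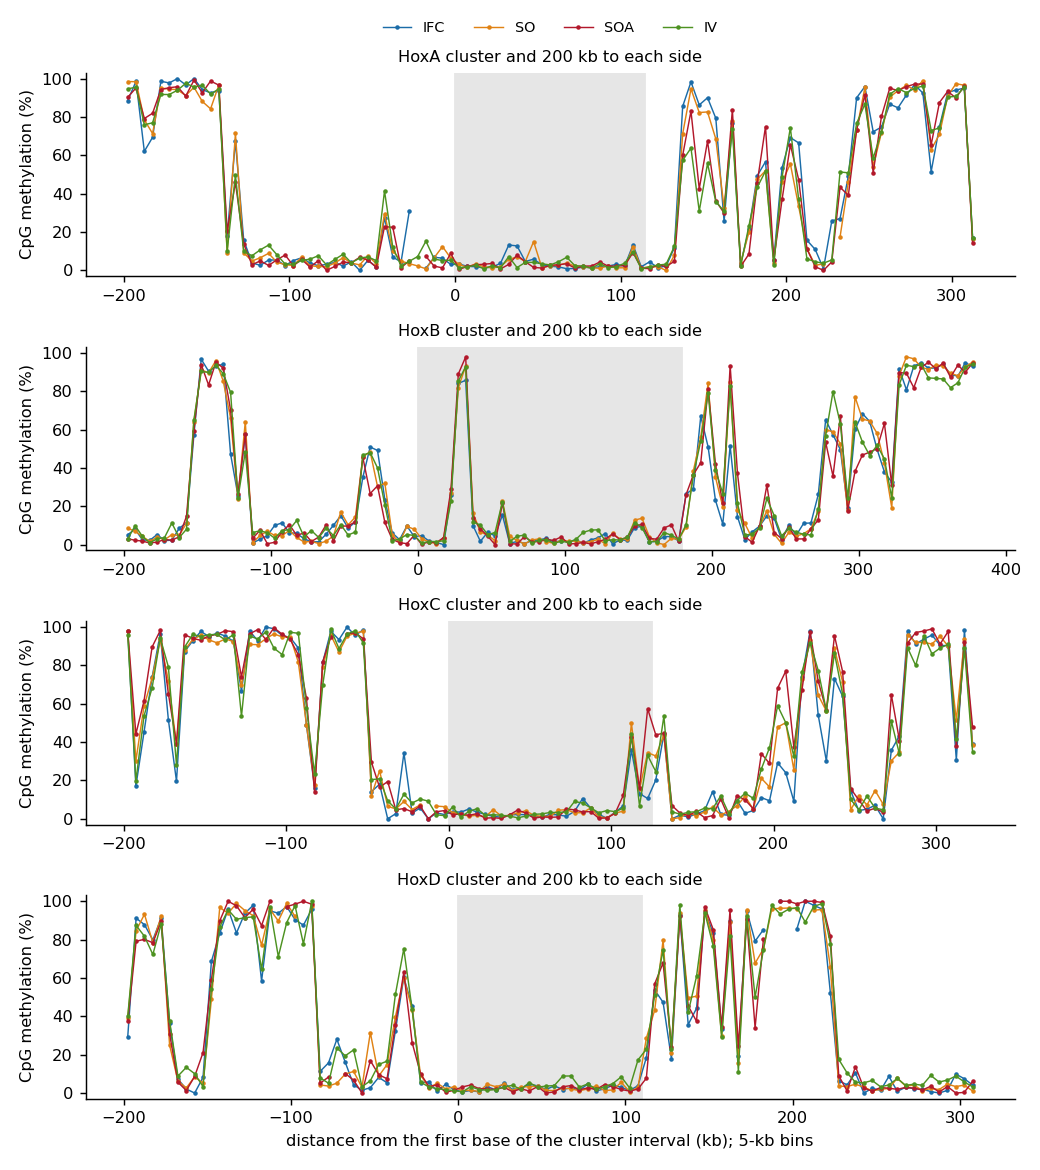
CpG methylation (percent, mean of the libraries of a group) in 5-kb bins across each Hox cluster, shaded grey, and 200 kb to each side, against the distance in kb from the first base of the cluster interval, with 1 coloured line for each of the 4 groups. The 4 lines run low inside the clusters except for a peak near the left end of HoxB, a lesser rise to its right and a lower peak at the right end of HoxC. In the last bin of HoxD the IV line rises to 17.3%. The flanks switch between low and high plateaus.

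**Figure D2:**
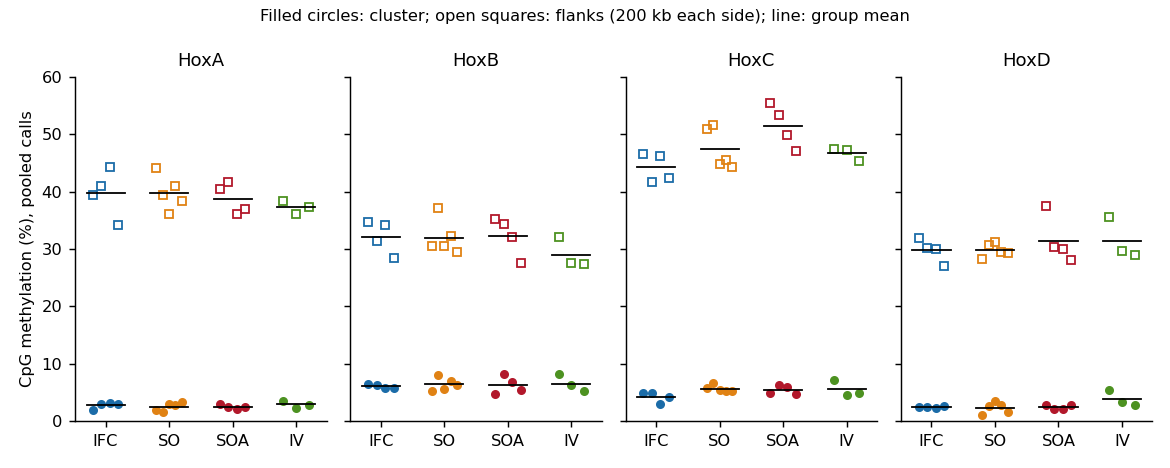
CpG methylation (percent of pooled calls) of each Hox cluster (filled circles) and of its flanks (open squares) in each of the 16 libraries by group, with the group mean as a line. No cluster exceeds 8.26% in any library, and no flank falls below 27.1%.

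Of the 106 cluster bins, 95 had at least 5 covered positions in every library. Their median methylation was 2.51%, against 21.6% in 210 flank bins and 26.3% in 200564 bins of the rest of the genome. Under 10% were 86 of the 95 cluster bins (90.5%), compared with 41.4% of flank bins and 35.2% of the rest. The clusters were also lower on both sides of a cut at 100 CpGs per bin. Among bins with at least 100 CpGs, the median was 2.28% in 62 cluster bins and 13.9% in 14358 bins elsewhere. Among bins with fewer CpGs it was 3.34% in 33 cluster bins and 28.8% elsewhere. CpG number was not matched: its median was 146.5 in cluster bins and 127 elsewhere above the cut, and 71 and 52 below it. Across the 95 cluster bins, methylation fell with the number of CpGs (Spearman's rho -0.40), a description of neighbouring bins that share libraries. All 19 such bins of HoxD and all 22 of HoxA were under 20%, and in HoxD the highest was 4.45%.

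Gene by gene the picture was the same. Pooled over all libraries, the 38 Hox gene bodies ranged from 0.975% to 21.5% with a median of 2.71%, and 36 of them were under 5%. With at least 5 covered positions in every library, 35 entered the test. The other 3, Hoxa4, Hoxa6 and Hoxd1, had 3.83%, 2.32% and 1.97% of their pooled calls methylated. The median of the 35 tested members was 2.59%, against 55.3% over all 18209 gene bodies tested. The long gene models of Hoxa3, Hoxc5 and Hoxd3 overlap other Hox genes of their clusters, so these genes share calls and are not independent.

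In HoxA the highest gene bodies were Hoxa7 at 3.51% (mean of the 4 group means), Hoxa3 at 3.00% and Hoxa11 at 2.91%, and the lowest were Hoxa10 at 1.56% and Hoxa2 at 1.96%. Hoxa11 rests on SOA3, which had 20.0%, and without that library its mean was 1.78%. Hoxa11 patterns the limbs and the uterus, and Hoxa2 the hindbrain and second pharyngeal arch. In HoxB they were Hoxb3 at 5.79%, Hoxb7 at 3.54% and Hoxb9 at 2.64%, with Hoxb8 at 1.13% and Hoxb4 at 1.55% the lowest. In HoxD the highest were Hoxd4 at 3.53%, Hoxd8 at 3.30% and Hoxd3 at 3.14%, with Hoxd13, a gene of the digits, at 1.08% and Hoxd10 at 2.22% the lowest. Hoxd4 had 12.3% in IV1 and at most 5.07% in the other libraries, so its rank is not firm either. In HoxC, Hoxc4 stood at 21.9%, followed by Hoxc8 at 5.45% and Hoxc5 at 3.26%, and the lowest were Hoxc12 at 1.18% and Hoxc11 at 1.84%. Hoxc8 had 26.3% in IV1, and without that library its mean was 3.52%.

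By place in the cluster, the 6 tested anterior genes (paralogues 1 to 3) had a median of 2.56%, the 13 central genes (4 to 8) 3.26% and the 16 posterior genes (9 to 13) 2.25%. Ranges overlapped, from 1.96% to 5.79%, from 1.13% to 21.9% and from 1.08% to 3.11%. Hoxc4 lay far from the rest, higher than 27.8% of all tested gene bodies, while each other member was higher than at most 9.74% of them.

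**Figure D3:**
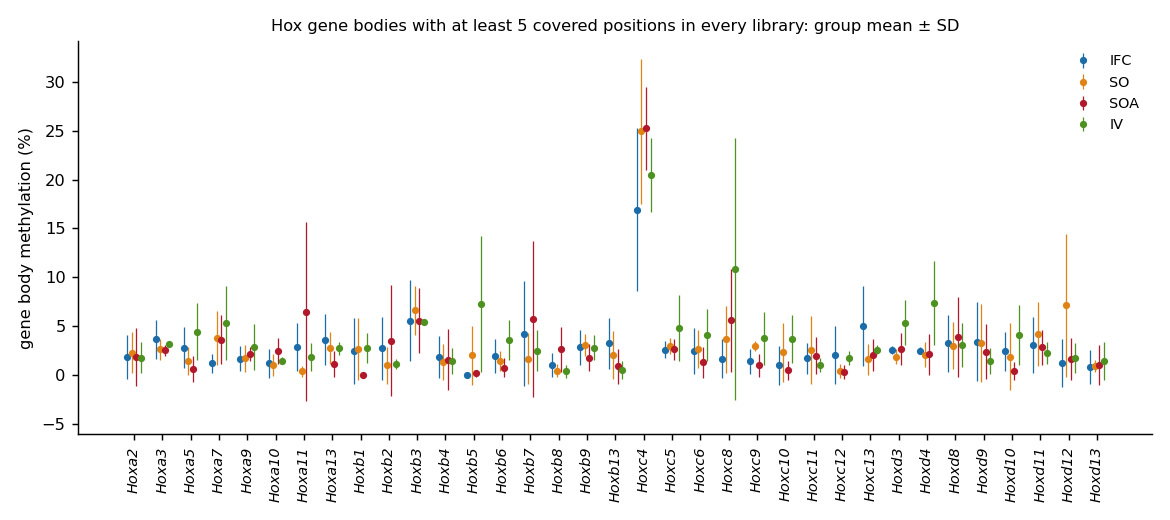
Gene body methylation (percent, mean ± SD of the libraries of each group) of the 35 Hox genes with enough coverage, ordered by cluster and paralogue number, with groups in colour. Hoxc4 lies between 16.9% and 25.2% in the 4 groups, and all other group means are at most 10.9%.

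Hox promoters were as low as the bodies: the 3 tested members had a median of 1.63%, and all 1305 tested promoters 1.96%. Of 21951 genes, only these 1305 had at least 5 covered promoter positions in every library. Their median therefore does not stand for promoters at large. In the 1000 bp upstream of the start, all 38 members had under 5% of their pooled calls methylated, from 0% to 4.69% with a median of 1.92%, and the number of calls ran from 51 in Hoxa9 to 660 in Hoxc5. These are not 38 separate regions. The Hoxc5 promoter, from 102966443 to 102967442, runs across the start of Hoxc10 at 102966796, and those of Hoxd3 and Hoxd4 overlap almost wholly. The promoters of Hoxb2 (90 calls, upper 95% Wilson limit 4.09%) and Hoxc10 (291 calls, upper limit 1.30%) had no methylated call. The Hoxc4 promoter, in front of the first exon of its longer transcript, had 1.15% of 87 calls (95% Wilson interval 0.20% to 6.23%), and the methylated calls of this gene lay in its body.

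No Hox gene body was called in any comparison by limma with Benjamini-Hochberg adjustment over 18209 gene bodies, against a background of 2.32% called for IFC vs SOA, 0.159% for IFC vs SO, 0.00549% when SOA was set against IV and 0.785% for SO vs SOA. With a median of 2.59%, against 55.3% over all gene bodies, the members had little room for a loss, so these shares do not compare like with like. At an unadjusted p under 0.05 the test passed 3 of the 35 members in SOA vs IV, against 6.48% of all gene bodies, and 0 of 35 in IFC vs SO (7.53%), IFC vs SOA (13.2%) and SO vs SOA (9.36%). The 3 were Hoxb5, Hoxd4 and Hoxa5 in SOA vs IV, all lower in SOA. Hoxb5 had 0%, 0%, 0% and 0.76% in the SOA libraries and 13.8%, 8.15% and 0% in IV1, IV2 and IV3. Hoxd4 had 0.93%, 3.03%, 0% and 4.64% in SOA and 12.3%, 4.70% and 5.07% in IV. In both genes the highest value was that of IV1. Hoxa5 had 0%, 0%, 0% and 2.63% in SOA and 3.51%, 7.69% and 2.08% in IV. Without IV1 the limma test, over the same gene bodies, passed 1 of 35 members at an unadjusted p under 0.05, against 3.71% of all: it was Hoxa5, while Hoxb5 and Hoxd4 no longer passed. The adjusted p of these 3 was then 0.999 in limma. Groups without overlap were found for 0 of 35 members in IFC vs SO (3.03% of all gene bodies), SO vs SOA (4.17%) and IFC vs SOA (7.72%), and for 3 of 35 in SOA vs IV (6.52%). These were Hoxd4, Hoxb1 (0% in SOA and 2.80% in IV) and Hoxd10 (0.446% and 4.11%), the latter pair named after their values were seen. Without IV1, which leaves 2 IV libraries, these 3 remained among 6 of 35, against 12.2% of all gene bodies. Of the promoters, 3 members (Hoxa11, Hoxb7 and Hoxc5) had enough positions for the test, and none was called with limma in the 4 comparisons, where 0.0766% of 1305 promoters were called for IFC vs SO and 0% in the others. The Hoxb7 promoter had 45.5% in SO3, 16.7% in SOA3, 1.82% in SO4 and 0% in every other library. Its difference was -9.45 points ± 7.21 (SE) for IFC vs SO, so for this promoter the test could see only large differences. The SE in that comparison was 1.66 points for Hoxa11 and 1.63 for Hoxc5. None of the 3 tested promoters had an unadjusted p under 0.05, and none had groups without overlap. Over all promoters these shares were 5.21% and 1.38% for IFC vs SO, 4.14% and 0.766% for SO vs SOA, 5.06% and 3.6% when SOA was set against IV, and 5.82% and 1.07% between IFC and SOA.

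No whole cluster was called between groups either. In the limma fit over the 4 clusters and 25270 windows of 100 kb, the largest differences were -1.45 points ± 1.58 (SE) for HoxD in SOA vs IV, -1.42 ± 1.48 for HoxC in IFC vs SO and -1.21 ± 1.57 for HoxC in IFC vs SOA, with adjusted p of 0.807, 0.88 and 0.715. The other 13 differences were within 0.45 points. Windows called were 11.2% for IFC vs SOA, 0.914% for IFC vs SO, 0% when SOA was set against IV and 5% for SO vs SOA. The clusters, near the floor, had less room for a loss than most windows. HoxD had 5.47% in IV1, 3.29% in IV2 and 2.70% in IV3, and without IV1 its difference between SOA and IV was -0.62 points.

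Bin by bin, 1 place in the clusters was called between groups, a share no higher than over all bins. A loss of the 20 points that a call needs was out of reach in most cluster bins. Of these, 86 of 95 had a mean under 10%, against 35.2% of bins in the rest of the genome. The share therefore does not show that the clusters are more stable than other bins. A bin was called at an adjusted p under 0.05 in a likelihood-ratio test of a logistic model of the calls, with Benjamini-Hochberg adjustment over all bins, whose p covers counting error and not the spread between libraries, and a difference of at least 20 points between group means. For IFC vs SO, 1 of 97 cluster bins was called, against 1.5% of all 237464 bins. For IFC vs SOA it was 1 of 99, against 4.22%. For SO vs SOA it was 0 of 97, against 2.32%, and for SOA vs IV 0 of 101, against 0.502%. In the flanks 17 of 234 bins were called for IFC vs SOA and 4 of 226 for IFC vs SO, and 4 of 227 were for SO vs SOA and 5 of 259 for SOA vs IV.

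The called bin is the last of HoxC, from 103035000 to 103039999, and holds the end of Hoxc4, the most anterior gene of this cluster. In the IFC libraries it had 16.4%, 6.25%, 6.25% and 13.5% of calls methylated, and in the SO libraries 35.3%, 41.2%, 31.9%, 40.8% and 23.5%. The SOA libraries had 47.4%, 80%, 66.7% and 35.6%, and the IV libraries 45.5%, 22.2% and 31.6%. All IFC libraries were below every library of the other groups, and groups were apart in this way in 2.26% of all bins for IFC vs SO and 5.38% for IFC vs SOA. Over the clusters, 1 of 97 bins was so for IFC vs SO and 5 of 99 for IFC vs SOA, and 3 of 97 for SO vs SOA (2.75% of all bins) and 5 of 101 for SOA vs IV (6.51%). Without IV1 the last count was 8 of 101, against 10.6% of all bins. Besides the end of Hoxc4, the bins counted with all libraries had group means under 6%. IFC was lower than SO by a difference of -23.9 points (10.6% ± 5.15 against 34.5% ± 7.29, adjusted p = 0.00164) and lower than SOA by -46.8 points (57.4% ± 19.8, adjusted p = 3.07e-06). SO vs SOA (-22.9 points, adjusted p = 0.308) and SOA vs IV (24.3 points, adjusted p = 0.234) did not pass, although without SOA4 the former was -30.1 points with an adjusted p of 0.0457. Without IV1 the latter was 30.5 points (adjusted p = 0.205). With a quasi-binomial F test, which adds the spread between libraries, the adjusted p was 0.285 for IFC vs SO and 0.224 for IFC vs SOA, and with limma on the percentages 0.533 and 0.0141. All IFC libraries were shallow, and an effect of depth was not tested. The 9 libraries of fewest calls include only SO1 and SO2 of SO, and SOA1, SOA2 and SOA3 of SOA. With these 9 alone, a setting chosen after seeing the data, the differences were -27.6 points (adjusted p = 0.0407) and -54.1 points (adjusted p = 1e-06). These p are again from the logistic model and cover counting error only.

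Within this bin, 2 stretches behaved differently. Up to the end of the coding sequence at 103035989 the bin has 45 CpGs and was low in all groups, with 5.49% of 91 calls in IFC and 7.76% of 116 in SO, and 9.09% of 55 in SOA and 5.13% of 78 in IV. The SOA calls there include 2 of 2 methylated in SOA3. After it, over the last untranslated part and the intergenic DNA that follows, there are 23 CpGs. There the IFC libraries had 37.5%, 20.0%, 20.0% and 42.9%, the SO libraries 62.5%, 100%, 69.6%, 76.9% and 50%, the SOA libraries 90%, 100%, 60% and 74.2%, and the IV libraries 87.5%, 38.9% and 78.3%. IV2 lay among the IFC values, and all other SO, SOA and IV libraries lay above them. Each of these values rests on 5 to 31 calls. Pooled, this was 33.3% in IFC (95% Wilson interval 19.8% to 50.4%) and 69.0% in SO (58.6% to 77.7%), and 78.0% in SOA (65.9% to 86.6%) and 68.4% in IV (55.5% to 79.0%). The low stretch gave 73.4% of the calls of the bin in IFC and 57.1% in SO, and 48.2% in SOA and 57.8% in IV, so the mix of covered positions moved with the groups. As the mean of its 1-kb parts, the difference was -20.0 points for IFC vs SO and -30.9 for IFC vs SOA, where 2 of the 5 parts hold only 3 and 1 IFC calls.

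Around the right edge of the interval the IFC mean was also the lowest, over a stretch that takes in most of the called bin. From the end of Hoxc4 to 10 kb beyond the interval (103036853 to 103049999, 108 CpGs), the IFC libraries had 26.9%, 42.9%, 8.70% and 30.8%, the SO libraries 51.4%, 57.1%, 42.1%, 46.0% and 28.4%, the SOA libraries 52.2%, 69.0%, 51.7% and 37.7%, and the IV libraries 44.8%, 35.4% and 40.2%. IFC overlapped with all other groups here, and its mean of 27.3% ± 14.1 was below the 45.0% ± 10.9 of SO, 52.6% ± 12.8 of SOA and 40.1% ± 4.72 of IV. In the printed window after Hoxc4, 10.0% of 10 calls were methylated in IFC and 48.4% of 31 in SO, and 82.4% of 17 in SOA and 64.5% of 31 in IV. Past the interval the 1-kb windows were mixed. The window from 103041000, with 32 CpGs, was low in all groups. It had 0% of 21 calls in IFC, 7.23% of 83 in SO, 11.3% of 71 in SOA and 6.36% of 110 in IV. The whole stretch had 128, 344, 240 and 324 calls in this order, so the mix of covered positions moved with the groups here too. In the window from 103040000 IFC had 8.70%, against 43.8% or more in the other groups, but in that from 103044000 it had 62.5%, next to 66.7% in SO, and in that from 103043000 its 40% of 5 calls was above the 16.7% of 6 calls in SOA. These stretches were marked out after their values had been seen and carry no test. Further right, 7 of 28 tested bins of the HoxC flank were called between IFC and SOA, against 4.22% of all bins and 7.26% over all flanks, all lower in IFC, among them the bin from 103120000 in the noncoding gene D930007P13Rik, at 24.0% in IFC and 77.0% in SOA (adjusted p = 8.76e-10 in the logistic model). For IFC vs SO, 1 of 31 bins of that flank was called. For SO vs SOA it was 2 of 29 (2.32% of all bins) and for SOA vs IV 1 of 32 (0.502%), all higher in SOA. In the bin from 103120000 the mean was 50.1% in both SO and IV, between those of IFC and SOA. There SOA was also called against SO (adjusted p = 9.28e-06) and against IV (adjusted p = 0.00435) in the logistic model. In the bin from 103185000 the means were 35.7% in IFC, 30.3% in SO and 64.8% in SOA.

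**Figure D4:**
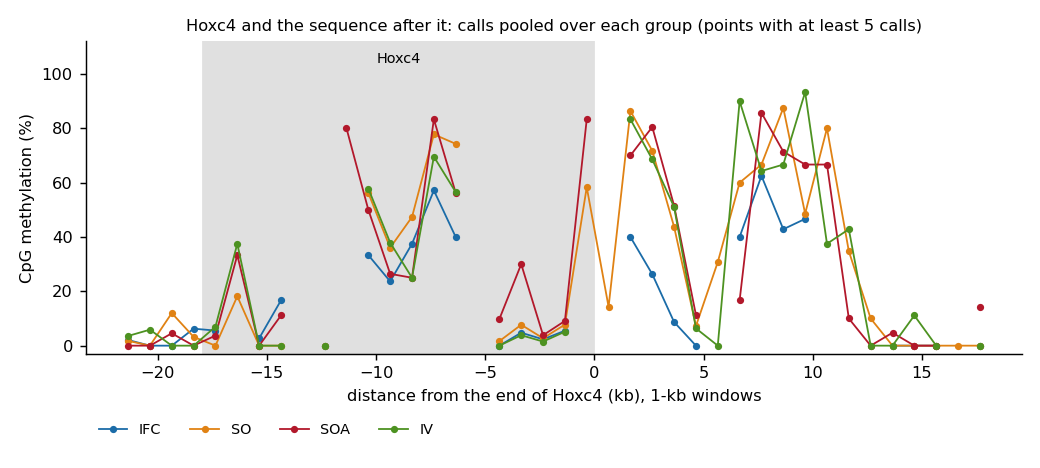
CpG methylation (percent of the calls pooled over each group) in 1-kb windows around Hoxc4, shaded grey, against the distance in kb from the end of the gene, where a point needs at least 5 calls. In the 2 windows that begin 2.85 kb before the end of the gene all groups are under 10%, and in the 3 windows that begin 1.15 kb after it IFC lies at 40%, 26.3% and 8.70%, below the other groups.

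As a bin mean, the Hoxc4 intron was methylated at an intermediate level in all groups, though not in every part of it. In the bin from 103025000 to 103029999, which has 97 CpGs, the IFC libraries had 37.9%, 63.6%, 24.3% and 17.1% and the SO libraries 48.0%, 63.6%, 52.4%, 39.8% and 45.6%. The SOA libraries had 64.0%, 48.8%, 28.0% and 30%, and the IV libraries 44.1%, 34.5% and 53.4%. IFC spread most and overlapped with every other group. Its difference from SO was -14.1 points (adjusted p = 0.0589 in the logistic model), and without IFC2 it was -23.4 points with an adjusted p of 0.00409. Leaving out any other 1 library put this difference between -16.7 and -7.92 points. Between SO and SOA it was 7.18 points (adjusted p = 0.125), from 2.28 points without SOA3 to 14.3 points without SOA1, where the adjusted p was 0.0348. In the printed window of the intron, 3.45% of 29 calls were methylated in IFC and 39.4% of 66 in SO, and 22.2% of 36 in SOA and 43.8% of 48 in IV. Of 79 CpGs with at least 5 pooled calls in the bin, 12 were under 20%, 60 between 20% and 80%, and 7 over 80%. An intermediate level in pools cannot tell alleles or cells that differ from sites that are partly methylated in each. The body of Hoxc4 as a whole had 16.9% in IFC and 24.9% in SO, and 25.2% in SOA and 20.5% in IV, and its differences of -8.03 points (IFC vs SO, adjusted p = 0.714) and -8.33 points (IFC vs SOA, adjusted p = 0.462) did not pass in limma.

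The most methylated Hox DNA lay in the gap between Hoxb13 and Hoxb9, where no protein-coding gene is annotated. Over 12 kb (96214000 to 96225999, 130 CpGs), the IFC libraries had 81.6%, 89.7%, 68.3% and 84.0%, the SO libraries 72.4%, 97.6%, 85.1%, 80.6% and 78.7%, the SOA libraries 90.9%, 89.1%, 91.7% and 91.1%, and the IV libraries 78.2%, 89.6% and 83.5%. The SOA libraries lay close together, and their range overlapped with those of IFC and IV and lay within that of SO. The block begins 16.6 kb after Hoxb13, a gene of the tail end, and ends 45.5 kb before Hoxb9. On its left the gap had 2.85% ± 2.32 in IFC and 3.96% ± 2.54 in SOA, and on its right 3.90% ± 2.15 and 4.34% ± 0.64. Of 99 CpGs of the block with at least 5 pooled calls, 66 were over 80%, 32 between 20% and 80% and 1 under 20%. The edges of the block were set after the values had been seen. None of its bins was called where the logistic model was run, but the bin from 96220000 had too few positions for IFC vs SO and SO vs SOA. The largest difference tested was -12.2 points in IFC vs SOA for that bin (85.7% ± 5.08 against 97.9% ± 4.29, adjusted p = 0.292), a bin with 5 to 35 calls in these libraries. The bin from 96215000 differed by -7.11 points in SO vs SOA (adjusted p = 0.187), from -11.6 points without SO2 to -3.95 points without SO1. A lesser rise, with a mean of 20.6%, lay in the bin from 96245000, also in the gap.

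**Figure D5:**
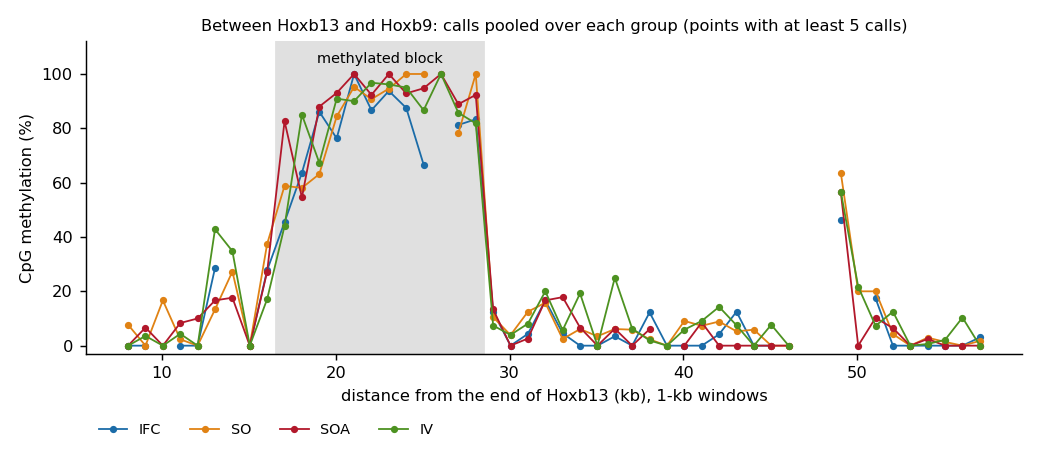
CpG methylation (percent of the calls pooled over each group) in 1-kb windows between Hoxb13 and Hoxb9 against the distance in kb from the end of Hoxb13, where a point needs at least 5 calls. All 4 groups rise together into the shaded methylated block and fall at its right edge from at least 81.8% to at most 13.3% from 1 window to the next.

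Outside these places no bin was called with all libraries, and the largest difference was -15.2 points. Outside Hoxc4 and the HoxB block, the bin with the largest difference in both IFC comparisons gave 10.1 points (IFC vs SOA, adjusted p = 0.114) and 7.55 points (IFC vs SO, adjusted p = 0.603) in the bin from 52180000 in Hoxa3. In SOA vs IV, besides the end of Hoxc4, the largest were -15.2 points in the bin from 74765000 at the end of Hoxd1 (adjusted p = 0.0150) and 9.37 points in the bin from 103030000 in Hoxc4 (adjusted p = 0.102). The latter was 10.2 points without IV1 (adjusted p = 0.202) and 4.73 points without SOA3. Leaving out 1 library moved the Hoxa3 bin to between 7.10 and 14.5 points in IFC vs SOA, with an adjusted p of 0.0447 without IFC1 and 0.0109 without SOA1, and to between 4.55 points without IFC2 and 11.96 points without IFC1 in IFC vs SO. At the Hoxd1 bin the SOA libraries had 0%, 0%, 6.67% and 1.61%, and IV1, IV2 and IV3 had 37.5%, 14.3% and 0%. The difference was -5.07 points without IV1 (adjusted p = 0.574) and -23.8 points without IV3 (adjusted p = 0.00129). By adjusted p alone, without the limit of 20 points, 6 of 101 cluster bins passed in SOA vs IV, all lower in SOA, against 3.37% of all bins. The 6 bins overlapped Hoxa7, Hoxb5, Hoxb6, Hoxd1, Hoxd3 and Hoxd4, apart from 1 that lay between Hoxb5 and Hoxb4. Hoxd1 ends at 74765142 and Hoxb5 at 96306121, so most of the bins from 74765000 and 96305000 lies past these genes. Without IV1 none of 101 passed, against 0.648% of all bins, but the differences shrank unequally. The bin between Hoxb5 and Hoxb4 went from -6.25 to -4.56 points (adjusted p = 0.0633 in the logistic model). That from 74710000 in Hoxd3 and Hoxd4 went from -3.62 to -3.10 (0.0826), and that from 96300000 from -5.27 to -3.67 (0.172). Those from 96305000 and 52215000 fell to -0.742 and -0.476. The same rule passed 2 cluster bins in IFC vs SO (2.99% of all bins) and 2 in IFC vs SOA (7.52%), which besides the end of Hoxc4 were 1 at Hoxb4 (5.31 points higher in IFC than in SO) and 1 at Hoxb13 (4.52 points higher in IFC than in SOA). It passed none in SO vs SOA (5.67%).

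The genes that work with Hox genes were less uniform. The 6 ParaHox and Cdx genes, sister genes and upstream activators of the Hox clusters, were low as well, with a median of 3.43% and a range from 1.23% in Cdx2 and 2.05% in Gsx2 to 3.92% in Cdx1 and 5.21% in Cdx4. In 41 other homeobox and paired genes the median was 3.04%, 30 were under 10%, Dlx5 was lowest at 1.03% and Pitx1 highest at 94.4%. Evx1, the homeobox gene next to HoxA, had 56.6%, and Evx2, next to HoxD, had 2.07%. The 9 TALE genes, whose proteins bind DNA together with Hox proteins, had a median of 29.8%, with Meis1 at 5.87%, Meis2 at 8.70%, Pknox1 at 75.8% and Pbx4 at 80.1%. The 20 Polycomb and Trithorax genes, regulators of the clusters, had a median of 63.0%, from 14.2% in Kmt2a and 22.8% in Pcgf2 to 92.1% in Phf19 and 94.6% in Kdm2b.

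In limma, no TALE or ParaHox gene was called in the 4 comparisons, nor any gene of these lists in SOA vs IV. Of the 20 Polycomb and Trithorax genes, 1 was called for IFC vs SOA, where 2.32% of all gene bodies were: Phc2 was higher in IFC than in SOA (35.7% against 22.4%, 13.2 points ± 3.12 SE, adjusted p = 0.0357). Of the 41 other homeobox and paired genes, 1 was called for IFC vs SO (0.159% of all gene bodies), 1 for SO vs SOA (0.785%) and 2 for IFC vs SOA (2.32%). Emx1, a gene of the forebrain, was higher in IFC (51.5%) than in SO (23.5%, adjusted p = 0.0121) and than in SOA (28.5%, adjusted p = 0.0145). Pax6, a regulator of eye and forebrain, was lower in SOA (5.73%) than in SO (22.2%, adjusted p = 0.0132) and than in IFC (25.3%, adjusted p = 0.00251), and IV had 4.59%. The 2 comparisons of Emx1 share the IFC libraries, and those of Pax6 the SOA libraries.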

How the data were processed

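Post-bisulfite adaptor tagging libraries of pooled MII oocytes were sequenced by the authors, trimmed with Trim Galore 0.4.4 and cutadapt 1.9.1 and aligned to GRCm38 with Bismark 0.19.0, per the submitters' processing notes. One label speaks of an individual mouse blastocyst, while all others name MII oocytes. The deposited files give, per position, the percent methylated and 2 counts, of methylated calls and of unmethylated ones, and these counts were used as deposited, and between 5218053 and 23065411 calls per library set the precision. Wilson intervals cover counting error only.

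Calls were pooled per library in 5-kb bins, gene bodies (GENCODE M21), promoters (1000 bp upstream), clusters and 100-kb windows. A feature was tested with at least 5 covered positions in every library compared (20 for 100-kb windows; all 16 libraries for genes). Bins were tested by a logistic likelihood-ratio test, and gene bodies, promoters and clusters by limma 3.58.1 (R 4.3.3) on percentages over all groups, with Benjamini-Hochberg adjustment over all features. Clusters and flanks were compared by an exact sign-flip permutation test. Scripts ran in Python 3.11.15 and were tested on simulated data. The named gene bodies are the 3 highest and 2 lowest of each cluster, and the named bins are those over 20%, called, or with the largest differences. Members and lists were chosen with earlier results of these data known. Labels do not say that pools came from separate animals, so limma's p-values measure only the spread between these pools, and those of the logistic test cover counting error alone. Alternatives varied the test, bin, filter, limit, scaling, depth and libraries.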

Additional observations from a re-analysis of the deposited data

Results flagged for a closer look

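In groups of 4 or 5 libraries, 14 of 129 sets of values held 1 library far from the others of its group. In 8 of the 14 the other libraries were all equal, at 0% or 100%, so that a single call can set a library apart; the rate of about 1 in 20 that chance gives for continuous values does not apply to these, and no excess is shown. As a whole cluster, HoxA had 1.86% in IFC1, and the nearest other IFC library had 3.00%. The bin at the end of Hoxd1 had 15.4% in IFC1 and 0% in the other IFC libraries, and the Hoxa3 bin had 12.5% in SOA1 and 0% in the other SOA libraries. In the HoxB block, the bin from 96220000 had 100% in SO1, from 3 calls, next to 92.3%, and 91.4% in SOA4 next to 100%. The bin from 96245000 had 50% in SO1, from 4 calls, next to 20.0%. Among gene bodies of SOA, SOA1 was high for Hoxb4 at 6.25% and for Hoxd13 at 4.17%, and SOA4 for Hoxc12 at 1.46% and for Hoxd10 at 1.79%, each with 0% in the other SOA libraries. Hoxd8 had 10.0% in SOA3 next to 1.9%. Of the SO libraries, SO1 had 8.57% in Hoxc11 next to 2.29%, and SO4 had 7.94% in Hoxd10 next to 1.61%. Hoxd13 had 3.45% in IFC2 and 0% in the other IFC libraries.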

How the results depend on the processing

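The difference between clusters and flanks kept its direction and its side of the threshold under all alternatives run. Its size was not the same for bin medians as for pooled calls. Leaving out 1 library at a time gave -36.8 to -36.1 points for HoxA, -25.5 to -24.9 for HoxB, -42.7 to -41.7 for HoxC and -28.1 to -27.4 for HoxD. No gene body, promoter or whole cluster was called between groups under any alternative run, and with few calls per promoter only 3 to 7 members, or 1 with at least 10 positions, could be tested. The call at the end of Hoxc4 rested on settings. For IFC vs SO, 0 cluster bins were called with the F test, with limma, with a 30-point limit, with at least 20 covered positions, in 10-kb bins and in runs of 100 CpGs, and 2 without a limit on the difference. For IFC vs SOA, 0 were called with the F test, with at least 20 positions and in 10-kb bins, and 2 without a limit, and for SOA vs IV it was 6 without a limit. Leaving out 1 library gave 1 to 2 called bins for IFC vs SO, 0 to 1 for SO vs SOA, 0 to 1 for SOA vs IV and 1 to 1 for IFC vs SOA. The bin could not be tested at 20 positions, which fewer calls per bin do not reach; for the other settings the cause was not tested.

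The small differences between groups in whole clusters, none of them called, changed sign in places. With the mean of position percentages they were -0.115 points for HoxB in SO vs SOA and 0.259 for HoxC in SOA vs IV, and the Hoxc4 body gave 2.28 for SO vs SOA. With the median over bins they were -0.384 for HoxA and 0.175 for HoxD in SO vs SOA and 0.661 for HoxC in IFC vs SOA. With the 9 libraries of fewest calls alone, a setting chosen after seeing the data, HoxA gave -0.710 in SO vs SOA. Leaving out 1 library gave ranges across 0. For HoxA they were -0.129 to 0.294 in SO vs SOA. For HoxB they were -0.679 to 0.0415 in IFC vs SO, -0.739 to 0.463 in IFC vs SOA, -0.370 to 0.832 in SO vs SOA and -0.944 to 0.523 in SOA vs IV. For HoxC they were -0.0484 to 0.516 in SO vs SOA and -0.522 to 0.706 in SOA vs IV. For HoxD they were -0.145 to 0.454 in IFC vs SO, -0.0384 to 0.214 in IFC vs SOA and -0.367 to 0.232 in SO vs SOA. The Hoxc4 body gave -3.39 to 1.57 in SO vs SOA.

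The replicate numbers share no stated origin. Same-numbered libraries correlated in their deviations from the group means by 0.0081 to 0.146 in IFC vs SO, 0.0104 to 0.0949 in SO vs SOA, -0.0519 to 0.00375 in SOA vs IV and -0.0127 to 0.114 in IFC vs SOA. Their medians in this order were 0.0340, 0.0423, -0.0326 and 0.0535. Pairs with unlike numbers had medians of 0.00174, -0.0209, 0.0210 and -0.00721. Same-numbered libraries were thus slightly more alike except in SOA vs IV, and whether they share a batch was not tested. With the replicate number as a block, the cluster differences that turned were -0.0211 for HoxD in IFC vs SO, -0.129 for HoxA and 0.108 for HoxD in SO vs SOA, and 0.0828 for HoxC in SOA vs IV, and the end of Hoxc4 had an adjusted p of 0.000555 for IFC vs SO and 7.47e-07 for IFC vs SOA in the logistic model.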
